A study of Mus musculus with 2 samples.

Results

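Pro-B and pre-B cells, the stages of B lymphocyte development at which the immunoglobulin heavy chain gene and then a light chain gene are assembled, made up 355 of the 2478 bone marrow cells in these sc-RNA-seq data. They were chosen by measured values. A cell was taken when it had at least 3 unique molecular identifiers (UMIs, tags that count single mRNA molecules) of Cd79a, under 3 of Siglech, and more UMIs of Igll1, Vpreb1, Myl4 and Ebf1 in sum than of Ms4a1, Fcmr, H2-Eb1 and H2-DMb2 in sum. The levels of these 10 genes, and of genes that vary with them, are therefore a description of the choice and are given with no test. Of the cells that met the Cd79a and Siglech limits, the other 102, in which the second sum was equal or higher, are called later B cells. All cells that did not meet these limits are called cells outside the B lineage. That name follows the limits only, and some of these cells carried B lineage transcripts.

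The bone marrow came from Fsp1-Cre;Col1a1flox/flox mice (Col1a1fspKO) and from Cre-negative;Col1a1flox/flox littermates (WT), all 2 months old. Both groups thus carried the floxed Col1a1 allele, the gene of the type I collagen α1 chain, and only Col1a1fspKO also carried Cre, driven by the promoter of Fsp1 (S100a4). Femur and tibia marrow of 2 mice was pooled for each genotype and sorted for live cells only, and 1 library was made per genotype. There is hence no replicate and no test between genotypes, and differences between the libraries cannot be told apart from differences between mice or preparations. All intervals below are 95% intervals and cover counting error only.

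B cells arise in the marrow from progenitors that need interleukin-7. In pro-B cells, RAG1 and RAG2 cut the heavy chain locus and terminal deoxynucleotidyl transferase, the product of Dntt, adds bases at the joints. A completed heavy chain pairs with the surrogate light chain, made of λ5 (Igll1) and VpreB (Vpreb1 and Vpreb2), and with the signalling chains CD79A and CD79B, to form the pre-B cell receptor. Large pre-B cells divide on this signal, then stop dividing as small pre-B cells and rearrange a light chain gene. The immunoglobulin constant genes were not listed in the tables, so heavy and light chain transcripts were not analysed here.

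The surrogate light chain genes are parts of the pre-B receptor, and Igll1 and Vpreb1 are among the genes that chose these cells. The 250 bases before the start of each are shown from RefSeq (GRCm38.p6). Capitals mark matches to CCCNNGGG, the core of sites that EBF1 binds, and to CAGNTG, an E-box core of the kind that E2A proteins bind. Both strands were searched. The first motif reads the same on either strand, while the second read on the other strand is CANCTG. No match of one overlapped the other. The window of Igll1 lies at chr16:16863986-16864235 (minus strand), that of Vpreb1 at chr16:16869256-16869505 (minus strand) and that of Vpreb2 at chr16:17980315-17980564 (plus strand). The starts of Igll1 and Vpreb1 are 5270 bases apart.
Igll1: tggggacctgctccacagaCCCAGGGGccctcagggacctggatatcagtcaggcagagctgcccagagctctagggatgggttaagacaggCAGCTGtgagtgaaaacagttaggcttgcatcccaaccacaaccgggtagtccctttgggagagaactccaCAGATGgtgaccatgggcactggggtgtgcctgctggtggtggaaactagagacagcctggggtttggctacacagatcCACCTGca
Vpreb1: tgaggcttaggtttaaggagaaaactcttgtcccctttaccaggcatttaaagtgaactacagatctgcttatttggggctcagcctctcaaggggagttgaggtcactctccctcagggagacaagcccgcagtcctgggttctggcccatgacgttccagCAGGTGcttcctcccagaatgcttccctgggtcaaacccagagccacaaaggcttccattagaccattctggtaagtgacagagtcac
Vpreb2: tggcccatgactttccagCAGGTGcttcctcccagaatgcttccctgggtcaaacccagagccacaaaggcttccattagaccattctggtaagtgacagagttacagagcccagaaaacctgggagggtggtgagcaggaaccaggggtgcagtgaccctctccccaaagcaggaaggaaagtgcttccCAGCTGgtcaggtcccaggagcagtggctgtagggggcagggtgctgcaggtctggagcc
The Igll1 window held 1 match of the first motif and 3 of the second, the Vpreb1 window 0 and 1, and the Vpreb2 window 0 and 2. Of all 32851 windows of this length, 11.8% held the first motif and 44.8% the second. These matches are a description and say nothing of binding. The transcripts of Vpreb1 and Vpreb2 were 97.4% identical over 759 aligned bases, so the counting may have split reads between these copies.

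The Col1a1fspKO library held 187 pro-B and pre-B cells among 1309 cells, a share of 14.3% (12.4 to 16.3). The WT library held 168 among 1169, or 14.4% (12.4 to 16.5). The difference, Col1a1fspKO minus WT, was -0.0855 percentage points (-2.87 to 2.67), so none was detectable at this number of cells. Of the cells that met the Cd79a and Siglech limits, they made up 77.9% in Col1a1fspKO (187 of 240) and 77.4% in WT (168 of 217). Few cells lay at the Cd79a limit, but the choice depended on Ebf1 and on depth. Without Ebf1 in the first sum, 159 of the 187 and 149 of the 168 cells would still pass. With the rule applied to thinned cells the shares were 9.17% in Col1a1fspKO and 9.24% in WT. Among the chosen cells, 18 in Col1a1fspKO and 7 in WT had exactly 3 Cd79a UMIs, while 8 and 5 cells with 2 Cd79a UMIs met the rest of the rule. The median sum of the 4 early genes was 24 UMIs in Col1a1fspKO and 31 in WT, against a median of 0 for the 4 late genes in both.

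The cells carried a median of 5085 UMIs in Col1a1fspKO and 6600 in WT, and later B cells 3068 and 3688. Cells reached down to 2540 UMIs in the Col1a1fspKO table and to 2909 in the WT table, so shares that depend on shallow cells are also given for cells with at least 2909 UMIs (the shared minimum), or after each cell was thinned to 2500 UMIs. The libraries shared 2 cell barcodes, of which 0 belonged to pro-B and pre-B cells.

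Some of the cells carried transcripts of another lineage. Of the Col1a1fspKO cells, 21 drew 6.41% to 42.2% of their UMIs from 10 neutrophil genes such as S100a8 and Ngp, while the highest share among all others was 0.785%. In WT the gap was narrower, with shares up to 2.79% for the neutrophil genes and 3.11% for 8 erythroid genes among cells under the limit. There 10 cells exceeded 5% for the neutrophil genes and 4 for the erythroid genes, the latter at 41.3% to 53.9% of their UMIs. These 35 cells are called mixed cells, by a limit of 5% set after the shares had been seen, and may be doublets, which was not tested. They made up 11.2% of the pro-B and pre-B cells in Col1a1fspKO and 8.33% in WT. Values that rest on them are given with and without them. Below the limit, globin transcripts still reached nearly every cell: the erythroid genes had a median of 0.962% of UMIs in Col1a1fspKO and 0.799% in WT. Of 6 T and natural killer cell genes listed, 0 were at 0 in Col1a1fspKO and 2 in WT, and their sum did not exceed 0.813% of any cell. Of 6 plasmacytoid dendritic cell genes, 3 were at 0 in each library, and their sum did not exceed 0.146% of any cell. For 8 monocyte genes, of which 0 were at 0, the highest share was 2.37% in Col1a1fspKO and 3.14% in WT, and for 5 plasma cell genes, also with 0 at 0, it was 0.395% and 0.564%. Of 5 basophil and eosinophil genes 2 were at 0 in each library. The part of these transcripts in the results was not tested.

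**Figure D1:**
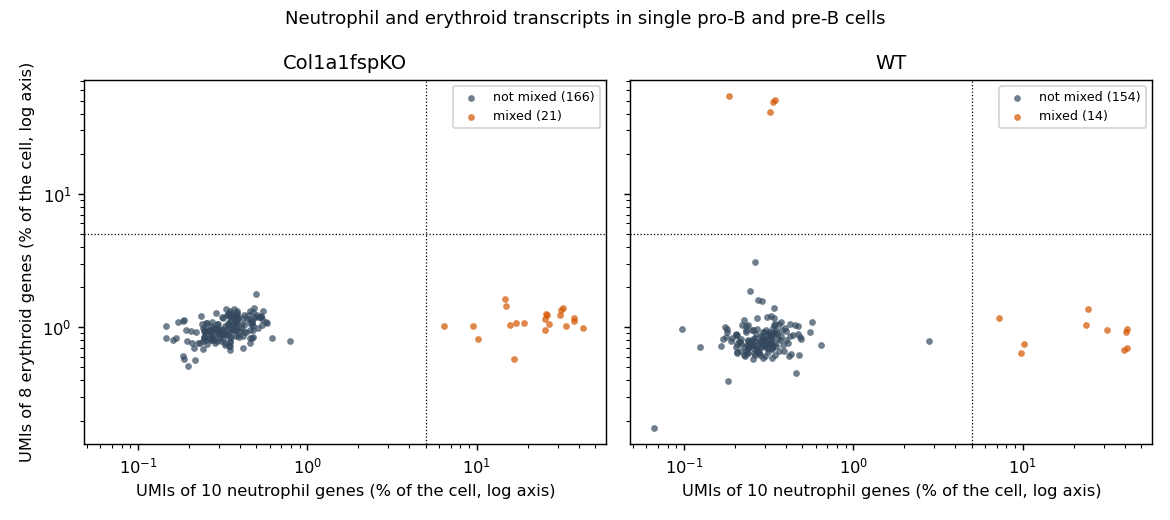
Share of each pro-B and pre-B cell's UMIs from 10 neutrophil genes (x axis, %, log) and 8 erythroid genes (y axis, %, log), 1 point per cell and 1 panel per library, with dotted lines at 5%. The 21 mixed cells in Col1a1fspKO lie beyond the neutrophil limit, and the 14 in WT split into 10 beyond the neutrophil and 4 beyond the erythroid limit.

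The markers of the label are described here. Vpreb3, which assists assembly of the pre-B receptor and which the rule did not use, had a UMI in 186 of 187 cells in Col1a1fspKO and 168 of 168 in WT, against 14.7% and 12.6% of all cells outside the B lineage. Of later B cells, which were shallower, 66.0% in Col1a1fspKO and 69.4% in WT had one. The level of Vpreb3 in UMIs per 1e+06 UMIs of the cells (CPM) came to 2523 (2442 to 2606) in Col1a1fspKO against 2525 (2446 to 2606) in WT. In later B cells it came to 882 (762 to 1015) and 579 (489.7 to 680.4). Of the rule's own markers, Ebf1, which specifies the B lineage, stood at 2069 CPM in Col1a1fspKO and 2169 in WT. Myl4, a myosin light chain, stood at 716 and 903. Both belong to the rule, so their levels describe the choice and check nothing. Ebf1 also had a UMI in 52 of 53 later B cells in Col1a1fspKO and 49 of 49 in WT. Kit and Flt3, receptors of earlier progenitors, were almost absent from the pro-B and pre-B cells. These held 4 UMIs of Kit and 6 of Flt3 in Col1a1fspKO against 2 and 3 in WT. Of the cells called outside the B lineage, 13.3% in Col1a1fspKO and 14.4% in WT had a Cd79b UMI. For Ebf1 these shares were 6.36% and 5.57%, so that background is not free of B lineage cells.

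The surrogate light chain genes divided the cells. Igll1 had a UMI in 75 of 187 cells in Col1a1fspKO and 86 of 168 in WT, and its level over all of them was 723 CPM (680.1 to 768) and 789.9 (746 to 836). Vpreb1 stood at 638 CPM (598 to 680.5) in Col1a1fspKO and 643 (604 to 685) in WT. Vpreb2 was low, at 46.6 and 44.5 CPM. The library levels of each of these genes lay within 1.5-fold of each other. Igll1 and Vpreb1 were found in the same cells, together in 69 cells in Col1a1fspKO and 79 in WT, Igll1 alone in 6 and 7 and Vpreb1 alone in 6 and 5. After thinning, Spearman's rho between them over cells was 0.831 in Col1a1fspKO (187 cells) and 0.784 in WT (168 cells), a description over cells that share a library.

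Cells with no UMI of either gene made up 56.7% of pro-B and pre-B cells in Col1a1fspKO and 45.8% in WT. The share with at least 3 UMIs of the pair came to 35.3% (28.5 to 42.6) in Col1a1fspKO against 47.6% (39.9 to 55.5) in WT. With the shared minimum the shares were 37.7% and 47.6%, and after thinning 27.3% and 31.5%. Both genes belong to the rule, so these shares are a description of 2 single libraries, and the gap between them was smaller at like depth.

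Dntt, which the rule did not use, marked a further division. It had a UMI in 30 of 187 cells in Col1a1fspKO, or 16.0% (11.1 to 22.1), and in 17 of 168 in WT, or 10.1% (6.01 to 15.7), a difference of 5.92 points (-1.22 to 12.9). After thinning, the shares were 14.4% and 10.1%. With the rule applied to thinned cells the difference was 1.11 points (-8.29 to 10.3), and with at least 2 Dntt UMIs 3.25 points (-3.63 to 9.98). Among later B cells 0 of 53 in Col1a1fspKO and 0 of 49 in WT had one, at lower median depths of 3068 and 3688 UMIs. A floor of 3 cells leaves room for shares of cells with a Dntt UMI of 5.66% and 6.12%, for counting error only. Outside the B lineage 2.71% of cells in Col1a1fspKO (median depth 4999 UMIs) and 1.996% in WT (median 5491) had a Dntt UMI. Cells with Dntt had a median of 4 Dntt UMIs in Col1a1fspKO and 6 in WT, and as many as 34 and 27. Leaving out mixed cells, 29 and 17 cells with Dntt remained, and 29 of 29 and 17 of 17 had at least 3 UMIs of Igll1 and Vpreb1.

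For the rest of the description the cells without mixed cells were split into 3 ranges, set after the values had been seen. Dntt cells had a Dntt UMI. The others were cycle-high or cycle-low, with at least or under 15 UMIs of 96 S and G2/M phase genes per 2500 UMIs. These are ranges of a score and not cell types. The limit fell in a gap, since 2 pro-B and pre-B cells in Col1a1fspKO and 3 in WT had 13 to 17 such UMIs. Col1a1fspKO held 29 Dntt, 98 cycle-high and 39 cycle-low cells, and WT held 17, 115 and 22.

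**Figure D2:**
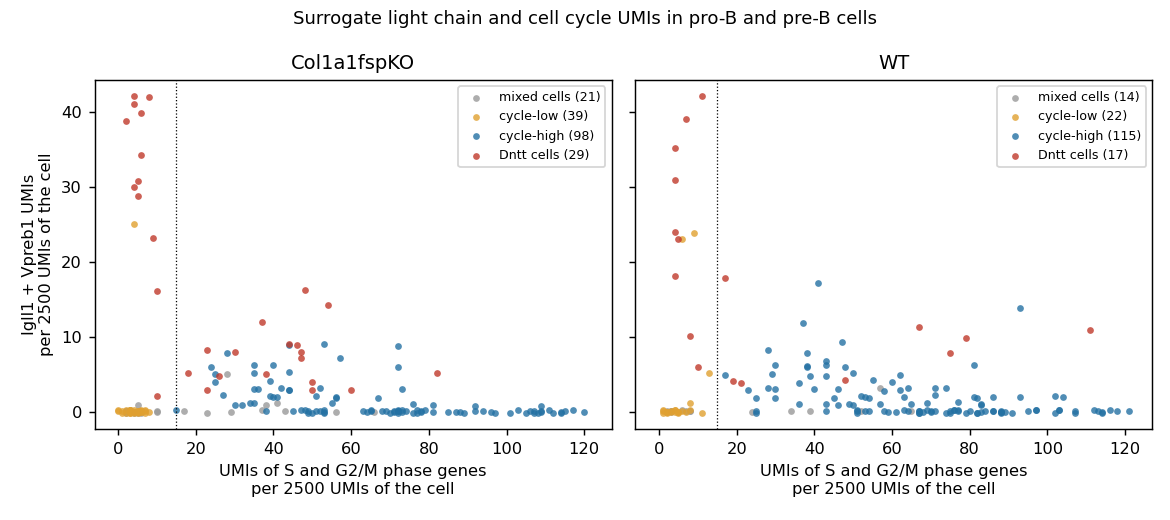
UMIs of S and G2/M phase genes (x axis) against Igll1 plus Vpreb1 UMIs (y axis, with a small vertical jitter), both per 2500 UMIs of the cell, 1 point per pro-B and pre-B cell, coloured by range, with a dotted line at 15. The 29 Dntt cells in Col1a1fspKO and 17 in WT reach 42 UMIs of the pair and lie on both sides of the line, while cycle-high cells reach 9 and 17.

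Cycle-high cells were the largest range. Over all pro-B and pre-B cells, 125 of 187 in Col1a1fspKO, or 66.8% (59.6 to 73.5), and 129 of 168 in WT, or 76.8% (69.7 to 82.9), had at least 15 cycle UMIs, a difference of -9.94 points (-19.0 to -0.535). With the shared minimum the shares were 78.0% and 76.8%, and the difference turned to 1.20 points (-7.90 to 10.2). The shared minimum removes cells from Col1a1fspKO only, since the WT table does not reach below 2909 UMIs. With the rule applied to thinned cells the difference was -11.7 points (-23.8 to 1.03). The part of depth in the difference was not tested. In later B cells 5.66% (3 of 53) and 22.4% (11 of 49) were as high, and outside the B lineage 29.5% and 35.6%. Among Dntt cells, mixed ones included, 18 of 30 in Col1a1fspKO and 8 of 17 in WT reached the limit.

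Cycle-low cells made up 23.5% (17.3 to 30.7) of the cells that were not mixed in Col1a1fspKO and 14.3% (9.17 to 20.8) in WT. With the shared minimum these shares were 13.04% and 14.3%, -1.24 points apart (-9.14 to 6.86). Cycle-low cells were also the shallowest, at medians of 2857 (Col1a1fspKO) and 3131 (WT) UMIs, against 5482 and 8365 in cycle-high cells. Dntt cells made up 17.5% and 11.04%, and with the shared minimum 16.7% and 11.04%.

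**Figure D3:**
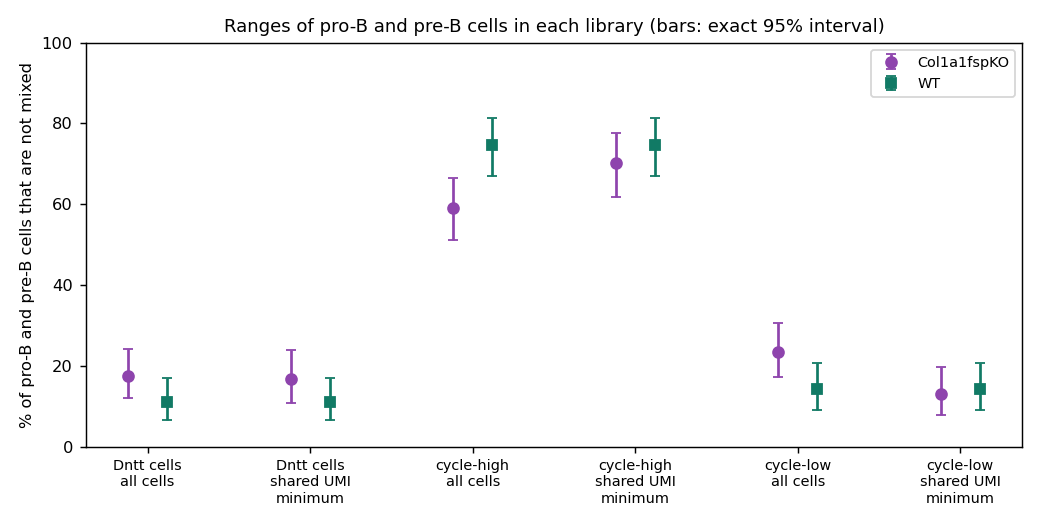
Share of each range among pro-B and pre-B cells that are not mixed (y axis, %) in Col1a1fspKO (circles) and WT (squares), for all cells and for cells with at least 2909 UMIs, with exact 95% intervals. The cycle-low shares of 23.5% and 14.3% come to 13.04% and 14.3% with the shared minimum.

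Surrogate light chain transcripts were highest in Dntt cells. Igll1 stood at 1874 CPM (1717 to 2043) in the Dntt cells of Col1a1fspKO, at 562 (513 to 613) in its cycle-high and at 158 (96.5 to 244) in its cycle-low cells. In WT it stood at 2517 (2246 to 2812), 702 (656 to 752) and 456 (325 to 624). Vpreb1 stood at 1954, 410.3 and 118 CPM in the same ranges of Col1a1fspKO and at 2896, 474 and 562 in those of WT. In WT its cycle-low level (414 to 745) thus did not lie below its cycle-high level (436 to 515). The cycle-low levels rest on few cells: after thinning, Igll1 had a UMI in 1 of 39 cycle-low Col1a1fspKO cells and 4 of 22 WT cells, and a single cell held up to 14 and 11 UMIs. Vpreb3 was highest in cycle-low cells, at 4921 CPM (4542 to 5323) in the cycle-low cells of Col1a1fspKO and 4669.5 (4223 to 5151) in WT, against 2414 and 2452 in cycle-high and 2422 and 2767 in Dntt cells. Ebf1 was also highest in cycle-low cells, at 4376 CPM in Col1a1fspKO and 4751 in WT, against 1710.0 and 1939.9 in cycle-high and 2577 and 3243 in Dntt cells. Unlike Vpreb3, it belongs to the rule. Cells with little Igll1 and Vpreb1 could pass the rule through Ebf1, so its order over the ranges describes the choice and checks nothing.

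Myl4 was lowest in Dntt cells, at 216 CPM (165 to 278) in Col1a1fspKO and 16.1 (1.95 to 58.3) in WT, against 955 and 1068 in cycle-high cells. Rag1 and Rag2, the recombinase genes, were sparse. Rag1 had 10 UMIs in the cycle-low cells of Col1a1fspKO and 6 in WT, or 79.0 CPM (37.9 to 145) and 70.2 (25.8 to 153), against 9.04 (3.90 to 17.8) and 6.74 (2.91 to 13.3) in cycle-high cells. Its level in Dntt cells was 18.0 CPM (5.85 to 42.1) in Col1a1fspKO and 64.5 (27.9 to 127) in WT, there near the cycle-low level. Rag2 stood at 79.0 and 105 CPM in cycle-low cells and at 38.4 and 31.2 in cycle-high cells. In Dntt cells Rag2 was 54.1 CPM (30.3 to 89.2) in Col1a1fspKO and 161 (98.6 to 249) in WT. After thinning, Rag2 had a UMI in 3 of 29 Dntt cells and 15.3% of cycle-high cells in Col1a1fspKO, and in 8 of 17 and 9.57% in WT. For Rag2 in Dntt cells of Col1a1fspKO the share and the CPM thus gave different orders, and none is read. For Rag1 the thinned shares were 3.06% (0.636 to 8.69) of cycle-high and 12.8% (4.30 to 27.4) of cycle-low cells in Col1a1fspKO, and 4.35% (1.43 to 9.85) and 9.09% (1.12 to 29.2) in WT. The intervals of the shares overlapped in both libraries, whereas those of the CPM did not. Il7r, the interleukin-7 receptor, ranged from 90.1 to 174 CPM over the ranges of Col1a1fspKO and from 105 to 222 over those of WT.

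**Figure D4:**
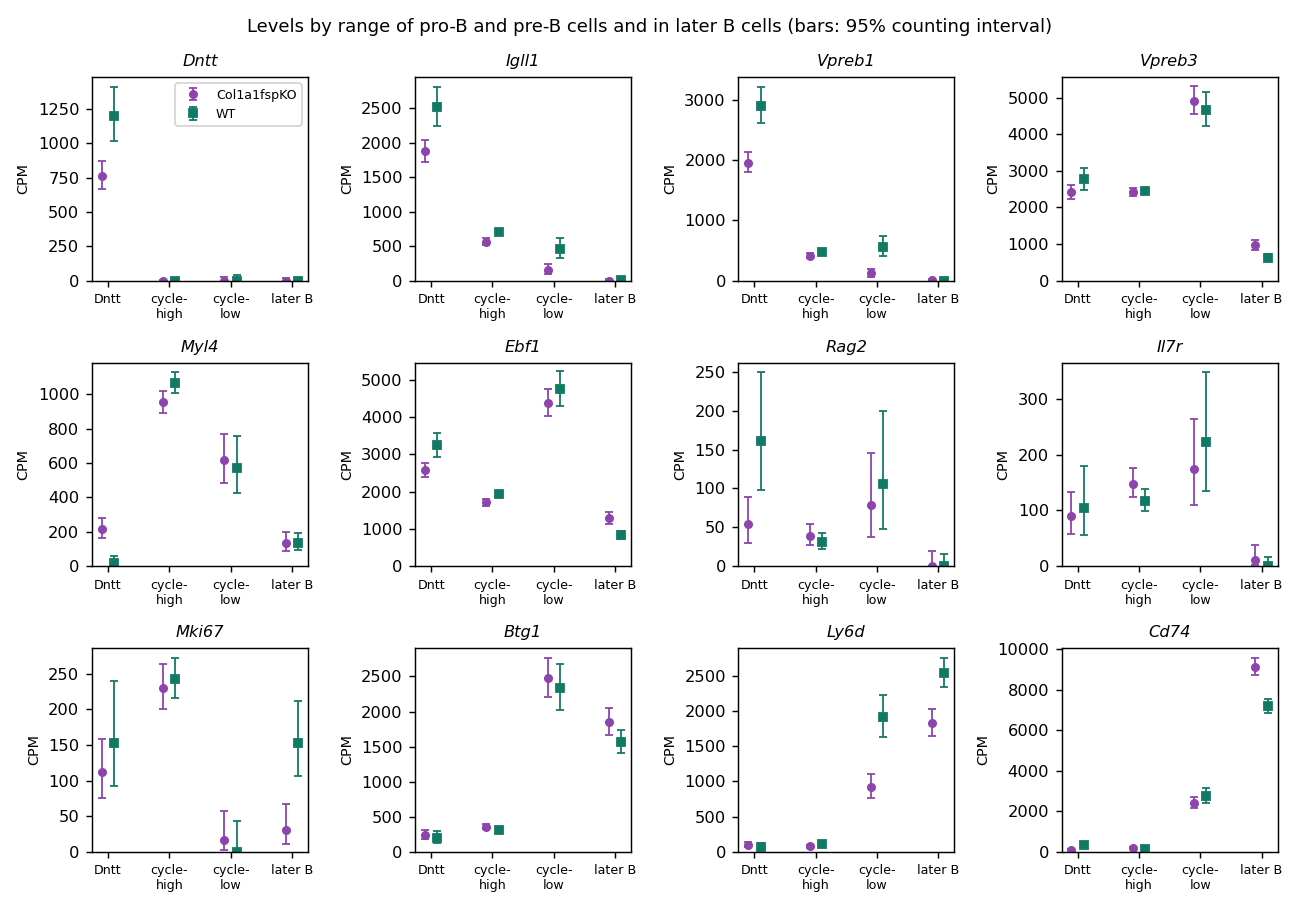
CPM of 12 genes (y axes, each with its own scale from 0) in Dntt, cycle-high and cycle-low pro-B and pre-B cells and in later B cells, mixed cells left out, for Col1a1fspKO (circles) and WT (squares) with exact Poisson 95% intervals. Igll1 and Vpreb1 peak in Dntt cells and Vpreb3 and Ebf1 in cycle-low cells in both libraries. Igll1, Vpreb1, Myl4 and Ebf1 belong to the rule, so their levels describe the choice.

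Against cycle-high cells, 87 of 4857 genes with at least 50 UMIs were at least 2-fold higher in Dntt cells in both libraries, a background of 1.79%, and 124 (2.55%) were at most 0.5-fold. Dntt itself chose the cells. Of the others, Myl10, a myosin light chain, was the highest, at 393 CPM in the Dntt cells of Col1a1fspKO and 161 in WT against 5.65 and 2.53 in cycle-high cells. Erg, a transcription factor of stem and progenitor cells, had 21 of its 23 UMIs in Dntt cells in Col1a1fspKO and 19 of its 21 in WT. Adgrg1, an adhesion receptor, stood at 184 and 177 CPM in Dntt cells and at 21.5 and 21.9 in cycle-high cells. Lef1, a transcription factor of the Wnt pathway, was at 234 and 258 CPM against 97.2 and 60.6.

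The genes lowest in Dntt cells included Fcrla, an Fc receptor-like protein of B cells, with 7 UMIs in the Dntt cells of Col1a1fspKO and 0 in WT against 300 and 420 in cycle-high cells. Spib, a transcription factor of later B cell stages, stood at 46.9 and 16.1 CPM in Dntt cells, 193 and 232 in cycle-high and 687 and 585 in cycle-low cells, the same order in both libraries. Bach2, a repressor needed beyond the pre-B receptor checkpoint, stood at 54.1 and 16.1 CPM in Dntt cells, 154 and 196 in cycle-high and 182 and 293 in cycle-low cells.

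Between cycle-high and cycle-low cells, 463 of 4648 genes (9.96%) were at least 2-fold higher in cycle-high cells in both libraries and 260 (5.59%) at most 0.5-fold. The S and G2/M phase genes chose these cells, and 27 of 41 and 37 of 52 of them were among the 463. Among the leading genes outside those lists was Tuba1b, an α-tubulin, at 2805 and 3051 CPM against 15.8 and 70.2. Of 10 glycolysis genes measured, 5 were at least 2-fold higher in cycle-high cells in both libraries and 0 lower. Higher in cycle-low cells were Btg1, an antiproliferative gene, at 2480.4 CPM in Col1a1fspKO and 2329 in WT against 356 and 317, Ly6d, at 924 and 1908 against 74.6 and 115, and Cd74, the MHC class II invariant chain, at 2425 and 2774 against 188 and 128. Cd79b stood at 2528 and 2376 CPM in cycle-low and 709 and 703 in cycle-high cells. Of 11 measured B cell surface genes 6 were higher and 0 lower in cycle-low cells, and of 24 transcription factors 6 and 0.

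Against later B cells, 482 of 5831 genes (8.27%) were at least 2-fold higher in pro-B and pre-B cells in both libraries and 205 (3.52%) at most 0.5-fold. The rule separated these cells, so these counts describe the separation, and the median gene itself stood 0.30 (Col1a1fspKO) and 0.19 (WT) higher on the log2 scale. The pro-B and pre-B cells held 1458946 (Col1a1fspKO) and 1526739 (WT) UMIs, against 219897 and 255505 in later B cells. The limit of 50 UMIs was thus reached more readily by genes high in the former, and the 2 counts are not alike. All 6 V(D)J recombination genes with at least 50 UMIs were higher, while the other 7 of that list were too sparse to count. Rag2 had 66 UMIs in Col1a1fspKO and 73 in WT and 0 in the later B cells of either, at least 3.32-fold and 4.07-fold higher against a floor of 3 UMIs. Dntt was at least 10.7-fold and 8.31-fold higher. Xrcc6, the Ku70 subunit of end joining, was 2.96-fold (1.62 to 6.02) and 5.55-fold (2.65 to 13.9) higher. Hmgb1 and Hmgb2, cofactors of RAG cutting, were also higher, though Hmgb2 is a gene of the cell cycle list too. Rag2 and Dntt reached 50 UMIs only through the pro-B and pre-B cells, so the count of 6 describes and does not test.

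Of the pre-B receptor list, Vpreb2 and Vpreb3 were higher and Cd79b, Grb2 and Ptpn6 lower among 16 genes measured outside the rule. Cd79b stood at 829 CPM in Col1a1fspKO and 778 in WT against 2096 and 1706 in later B cells. Ptpn6, the phosphatase SHP-1 that dampens receptor signals, was 3.72-fold (2.85 to 4.83) and 3.80-fold (2.94 to 4.89) higher in later B cells. The kinase genes Syk, Btk, Lyn and Blk and the adaptor Blnk stayed within 2-fold in both libraries.

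Of 10 interleukin-7 pathway genes measured, 4 were higher and 4 lower. Il7r had 191 UMIs in Col1a1fspKO against 2 in later B cells, a ratio of 14.4 (3.93 to 119.7), and 179 against 0 in WT, at least 9.99-fold. Ccnd3, a D-type cyclin of dividing pre-B cells, stood at 907 and 935 CPM against 337 and 250.5, while Ccnd2 stood at 87.7 and 152 against 364 and 611. Bcl2l1, a survival gene, was 3.07-fold (1.28 to 9.67) and 5.41-fold (1.80 to 26.7) higher, while Bcl2, another, was 15.9-fold and 33.6-fold lower and Mcl1 4.11-fold and 3.85-fold lower. The survival genes of the list thus divided between the stages.

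Of 25 transcription factors measured outside the rule, 4 were higher and 5 lower. The 4 were Sox4, Myb, Lef1 and Bach2. Sox4, needed for survival of pro-B cells, stood at 422 and 418 CPM against 59.1 and 90.0. Myb, needed for early B cell progenitors, stood at 205 and 191 CPM against 36.4 and 19.6. The 5 lower were Ikzf3, Irf8, Pou2f2, Mef2c and Klf2. Klf2, a gene of quiescent and circulating lymphocytes, stood at 209.7 and 214 CPM against 809 and 998. Pax5, Foxo1 and Tcf3 stayed within 2-fold in both libraries.

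All 6 MHC class II genes measured outside the rule were lower in pro-B and pre-B cells. Cd74 stood at 381 CPM (350.1 to 414) in Col1a1fspKO and 317 (289 to 347) in WT against 8163 and 6955 in later B cells, and H2-Aa at 84.3 and 115 against 1232 and 1033. Of 8 later B cell genes measured, 5 were lower and 0 higher. Tnfrsf13c, the BAFF receptor, was 8.15-fold and 12.8-fold lower. Among surface genes Cd93 and Bst1 were higher, and Ptprc, Ly6d, Cd22, Cd53 and Cd52 were lower. None of 11 homing and adhesion genes measured passed in both libraries.

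Beyond the lists, the genes that led in pro-B and pre-B cells were Gsn, the actin-severing gelsolin, at 107 and 176 CPM with 1 UMI in the later B cells of each library, Nrgn, a calmodulin-binding protein, at 146 and 188 CPM with 2 UMIs in each, and the radial spoke gene Rsph1, at 125 and 147 CPM with 0. Slc16a1, a lactate transporter, Ramp1, a receptor partner, and Tifa, an adaptor of NF-κB signalling, followed. Elane ranked high as well, but 91 of its 124 UMIs in Col1a1fspKO and 173 of 176 in WT came from 1 cell each. The genes that led in later B cells were Shisa8, Cd83, Nfkbid, Fcer2a, the low-affinity IgE receptor, and Wnt10a. Shisa8 had 37 and 44 UMIs in later B cells against 2 and 0 in pro-B and pre-B cells.

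Between the libraries, 56 of 5378 genes with at least 50 UMIs (1.04%) were at least 2-fold higher in the pro-B and pre-B cells of Col1a1fspKO and 39 (0.725%) at most 0.5-fold. Without mixed cells, the numbers were 28 of 5099 (0.549%) and 34 (0.667%), with 22 of the 56 and 28 of the 39 among them. The median log2 ratio over genes was 0.00 in both cases. Against this background, the lists of B cell development and cell cycle genes held few of these genes, as do all genes: 0 of 16 pre-B receptor genes, 0 of 6 V(D)J genes, 0 of 3 pro-B stage genes, 0 of 42 S phase genes, 1 of 52 G2/M genes (Cdc25c, lower), 1 of 9 interleukin-7 pathway genes (Socs2, lower), 1 of 10 late pre-B and light chain stage genes (Cd2, higher) and 1 of 25 transcription factors (Id2, higher). The counts are too small to set these lists apart from all genes. By median log2 ratio, the 52 G2/M genes stood at -0.350 and the 42 S phase genes at 0.116, against 0.00 over all genes. Without mixed cells these 2 lists stood at -0.345 and 0.085. The medians of the other lists named here lay from -0.106 (transcription factors) to 0.472 (the 3 pro-B stage genes). What lowered the G2/M median in Col1a1fspKO was not tested.

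Socs2, an inhibitor of cytokine signalling that STAT5 induces, had 39 UMIs against 92 in WT, or 26.7 and 60.3 CPM. Id2, an inhibitor of E proteins, had 51 UMIs in 24 cells in Col1a1fspKO and 9 in 8 cells in WT. Without mixed cells it had 23 and 5 UMIs, under the limit of 50 for a count.

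Apobec3, a cytidine deaminase that restricts retroviruses, was found in most Col1a1fspKO cells and few WT cells. It had 268 UMIs in 123 of 187 Col1a1fspKO cells and 41 UMIs in 33 of 168 WT cells, or 183.7 and 26.9 CPM, a ratio of 6.84 (4.91 to 9.75). Without mixed cells the ratio was 6.53 (4.68 to 9.32). It was 8.71 (3.71 to 24.996) in later B cells and 3.05 (2.46 to 3.80) in cells outside the B lineage, so the ratio was above 2 in other cells too.

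Other genes ran the same way in other cells too. BC094916 had 63 and 10 UMIs, a ratio of 6.59 (3.36 to 14.4), with 11.5 (3.61 to 58.2) outside the B lineage. H2-Q6, an MHC class I gene with near-identical copies among which reads may be split, stood at 3.49 (1.93 to 6.69), with 2.79 (1.75 to 4.59) outside. Gm5900 had 4 UMIs in Col1a1fspKO and 50 in WT, with 6 and 177 outside the B lineage. Rpgrip1 had 14 and 82, with 27 and 193 outside, and Gdpd3 15 and 62, with 157 and 739 outside. Bard1, the partner of BRCA1, had 14 and 48, with 45 and 125 outside. Each of these differed in the same direction by over 2-fold in pro-B and pre-B cells and outside the B lineage.

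For other genes the ratio outside the B lineage was nearer to 1. Ifi30, a lysosomal reductase of antigen processing, was 3.93-fold (2.72 to 5.81) higher in Col1a1fspKO pro-B and pre-B cells, 1.68-fold (1.30 to 2.20) in later B cells and 1.16-fold (1.05 to 1.30) outside. Ltb, lymphotoxin β, was 3.17-fold (2.08 to 4.97), 1.49-fold (1.19 to 1.87) and 1.60-fold (1.41 to 1.81) higher. Both genes were among those most raised in cycle-low over cycle-high cells, and the libraries differed in the share of cycle-low cells. By range, Ltb stood at 284 (199 to 394) CPM in Col1a1fspKO and 93.6 (40.4 to 184) in WT in cycle-low cells. In cycle-high cells it stood at 6.78 and 1.68, and in Dntt cells at 93.7 and 121. The part of the mix of ranges in these 2 ratios was not tested. Lxn, a carboxypeptidase inhibitor, had 15 and 54 UMIs, with 55 and 58 outside. Pycard, the inflammasome adaptor ASC, had 143 UMIs against 480 in WT, a ratio of 0.312 (0.257 to 0.377), with 0.346 (0.212 to 0.546) in later B cells and 0.722 (0.657 to 0.794) outside. Gm37065 had 22 UMIs in 21 cells and 161 in 79 cells. Outside the B lineage it had 4 and 10, the same direction but too few UMIs to read a ratio.

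Myl10, one of the leading genes of Dntt cells, had 114 UMIs in 16 cells in Col1a1fspKO and 23 in 10 cells in WT, a ratio of 5.19 (3.29 to 8.51). Its highest single cell held 36 UMIs in Col1a1fspKO and 11 in WT, and within Dntt cells it stood at 393 (323 to 474) and 161 (98.6 to 249) CPM.

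Several of the genes with the highest and lowest ratios had many of their UMIs in the mixed cells. Ly6c1, whose close copy Ly6c2 may share reads, had 87 UMIs in Col1a1fspKO and 2 in WT, and 30 and 2 without mixed cells. Fcnb, a gene of immature neutrophils, went from 80 and 9 UMIs to 3 and 3, and Ly6g from 89 and 27 to 11 and 6. The α-globin genes Hba-a1 and Hba-a2, near-identical copies, had ratios of 0.238 and 0.295, and 0.996 and 1.07 without mixed cells. Hemgn, an erythroid gene, had 2 UMIs in Col1a1fspKO against 48 in WT. Without mixed cells it had 2 against 9, still lower in Col1a1fspKO but on few UMIs. Elane, Mpo and Prtn3, primary granule genes, stayed lower in Col1a1fspKO without mixed cells. There 1 WT cell under the 5% limit held 173 of 176 Elane, 57 of 57 Mpo and 148 of 156 Prtn3 UMIs.

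**Figure D5:**
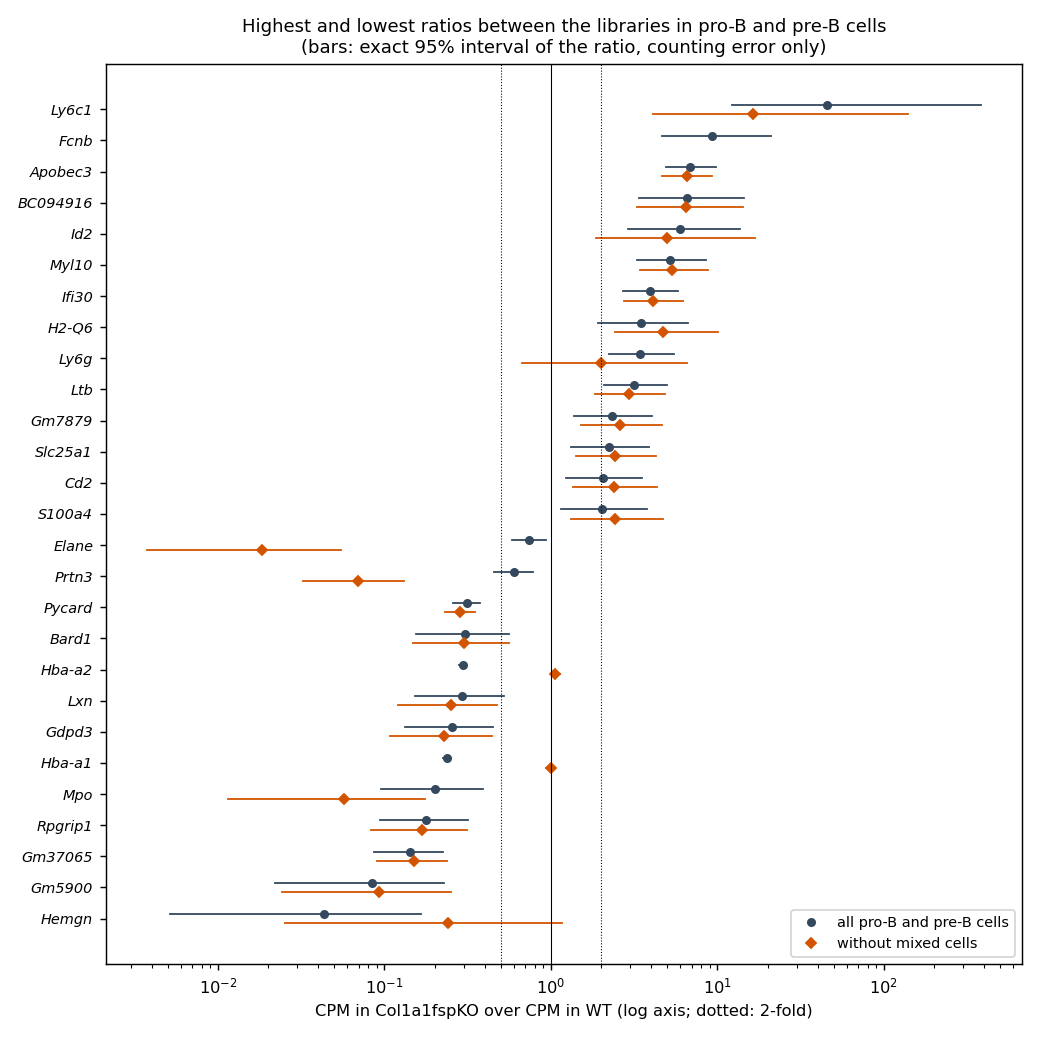
Ratio of CPM in Col1a1fspKO over WT in pro-B and pre-B cells (x axis, log) for genes among the 10 highest and 10 lowest with or without mixed cells, with exact 95% intervals and dotted lines at 2-fold; circles show all cells and diamonds the cells without mixed cells. Apobec3 stays near 6.84 and 6.53, while Hba-a1 moves from 0.238 to 0.996.

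S100a4, whose promoter drives Cre, was rare in these cells. It had 37 UMIs in 10 of 187 cells in Col1a1fspKO, of which 17 were in 1 cell, and 19 UMIs in 11 of 168 in WT, against a UMI in 28.3% and 32.2% of cells outside the B lineage. The share of cells was 5.35% (2.59 to 9.61) and 6.55% (3.31 to 11.4). The ratio of levels, 2.04 (1.14 to 3.75), thus rested on few cells. Col1a1 and Col1a2 had 0 UMIs in the pro-B and pre-B cells of both libraries, of 1458946 UMIs in Col1a1fspKO and 1526739 in WT.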

How the data were processed

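Live-sorted bone marrow cells were captured with the 10x Genomics 3' v2 chemistry. The tables deposited by the authors, 1 per library, hold UMI counts by gene and cell that were not normalized. The submitters' processing notes name Cell Ranger, Seurat 3.5.3 and mm10; the Cell Ranger version is not given in the sources used here. The tables held 1309 and 1169 cells. Of these, 0 lay outside the range of 200 to 7000 genes or above the 10% of mitochondrial UMIs that the methods set. No doublet caller was run. A gene listed in 1 table was taken as 0 in the other (13211 genes in either, 12312 in both).

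UMIs of each group of cells were added up within a library and expressed as CPM with exact Poisson intervals. Ratios have exact conditional binomial intervals, shares Clopper-Pearson intervals and differences of shares Newcombe intervals. A gene was counted when it had at least 50 UMIs and passed 2-fold; a group at 0 was set to a floor of 3 UMIs. To compare shares across depths, each cell was thinned to 2500 UMIs by sampling without replacement, which lost no cell. The calculations, in Python 3.11.15 with numpy 2.4.6 and scipy 1.17.1, were tested on simulated data.

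The rule for the cells and the gene lists were chosen with earlier results of these data known. The genes named are those of the rule and lists, S100a4, Col1a1 and Col1a2, the 10 highest and 10 lowest between libraries and the 15 highest and 15 lowest against later B cells. The ranges, the mixed cell limit and genes named between ranges were chosen after values were seen. Alternatives were other limits of the rule, thinned cells, a shared UMI minimum, no deepest 5% of cells, CPM without the most abundant genes, means of single-cell CPM and other count and fold limits. Values of 1 ranked gene and 1 further listed gene are not reported here.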

Additional observations from a re-analysis of the deposited data

Results flagged for a closer look

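For 35 of 5840 genes the ratio of pro-B and pre-B cells over later B cells passed 2-fold in opposite directions in the libraries, and 8 of those reported here were on the lists or among the ranked genes. The difference itself was not tested, since each genotype had 1 library. Of these 8, 6 are erythroid genes. The ratio in Col1a1fspKO and in WT was 0.158 and 2.64 for Alas2, 0.378 and 8.03 for Car2, 0.143 and 4.45 for Hba-a1, 0.239 and 3.46 for Hba-a2, 0.313 and 2.002 for Hbb-bt and 0.0167 and 8.03 for Hemgn. Mixed cells with over 5% of UMIs from erythroid genes numbered 0 in Col1a1fspKO and 4 in WT among pro-B and pre-B cells, and the highest erythroid share among later B cells was 23.1% in Col1a1fspKO and 2.28% in WT. Fcnb, a neutrophil gene, had ratios of 4.02 and 0.377, and 77 of its 80 UMIs in Col1a1fspKO lay in mixed cells. Cd9, a tetraspanin, had ratios of 2.11 and 0.386 on 42 and 30 UMIs in pro-B and pre-B cells and 3 and 13 in later B cells.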

How the results depend on the processing

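The libraries' difference in the share of pro-B and pre-B cells, and the shares with Dntt, moved by less than their intervals under every alternative, except that with at least 5 Cd79a UMIs the Col1a1fspKO share of all cells was 11.5%, and with the rule applied to thinned cells the shares were 9.17% and 9.24%. The share high in cell cycle genes was 55.0% in Col1a1fspKO and 66.7% in WT with the rule on thinned cells, 59.4% and 69.6% at a limit of 30 UMIs, and 78.0% in Col1a1fspKO with the shared minimum, where the difference was 1.20 points. Genes past 2-fold higher between the libraries numbered 29 with at least 5 Cd79a UMIs, 177 at a minimum of 20 UMIs, 14 at 100, 238 at 1.5-fold and 28 without mixed cells (added after seeing the data). Those lower numbered 64 for means of single-cell CPM, 175 at 20 UMIs, 9 at 100 and 216 at 1.5-fold. Against later B cells, 369 genes were lower at 20 UMIs, 115 at 100 and 414 at 1.5-fold, and 1078 were higher at 1.5-fold. Single genes were checked only for the ranked genes between the libraries and against later B cells, and for Cd2, S100a4 and Gm7879. Other named genes were not checked in this way. Of those checked, only 2 turned: S100a4 between the libraries, to -0.22 (log2) with at least 5 Cd79a UMIs, and Hba-a2, to 0.092 without mixed cells. In 8 further cases, on Ly6g, Cd2, Gm7879 and Hba-a1, the ratio fell below 2-fold. The other 808 values stayed past the fold limit in the same direction, though their size could change. These counts cover only values that could be computed: Fcnb, at 3 and 3 UMIs without mixed cells, gave no ratio there. The cause was not tested. No paired analysis was possible because each genotype had 1 library, and no replicate could be left out.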

Other observations

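Dntt was also found outside the B lineage cells described above, in 29 cells in Col1a1fspKO and 19 in WT. Of these, 11 and 5 had at least 3 Siglech UMIs, and 4 and 2 had a Cd79a UMI. With at least 2 Dntt UMIs there were 17 and 8 cells, of which 11 and 6 had a UMI of Flt3, Kit or Cd34, genes of early progenitors, 8 and 2 one of Ebf1, and 7 and 4 one of Mpo.

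Gene groups that the report does not describe differed between pro-B and pre-B cells and later B cells as follows. Of 7 dissociation response genes measured, 0 were higher and 2 lower in both libraries, and of 5 interferon response genes 0 and 1, beside 8.27% higher and 3.52% lower over all genes. After thinning, Spearman's rho over cells between depth and cycle UMIs was 0.393 in Col1a1fspKO and 0.192 in WT, and between Dntt and Igll1 UMIs 0.631 and 0.501.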
